A study of Homo sapiens with 6 samples.

Results

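The 45 genes described here encode the proteins that license, start and carry out DNA replication, together with the cyclin E, CDK2 and E2F1 genes of the G1/S switch and the genes of deoxynucleotide supply. They were chosen by symbol, through a named list and not through a threshold on measured values, but with earlier results of these data known. All 45 had a row among the 20169 genes of the count table and passed the filter on low counts. RNA-seq of polyadenylated RNA was made from HEK293T, a line from human embryonic kidney with a gene for the SV40 large T antigen. Both lines contained a landing pad (a genomic docking site for a reporter gene) with either the PGK promoter, taken from the glycolytic gene PGK1, or the stronger composite CAG promoter. Each line was monoclonal and was represented by 3 libraries, so promoter and clone cannot be told apart in any difference below. Whether the libraries within a line are separate cultures is not stated, so the p-values cover only the spread of these samples, possibly a technical one.

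DNA replication is prepared in G1, when the origin recognition complex, CDC6 and CDT1 load the MCM2-7 helicase onto origins. At the G1/S switch, cyclin E with CDK2 releases E2F transcription factors from the RB protein, and E2F drives many of the genes needed in S phase. CDC45 and the GINS complex then activate the helicase, and the replicative polymerases copy the DNA behind it. Large T antigen is known to bind RB and p53; its level and effect in these lines were not measured.

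Library totals ran from 21896246 to 23442542 counts, and libraries of a line were more alike (Pearson correlation of log2 values across genes of at least 0.9948) than libraries of different lines (at most 0.9599). The line markers of HEK293T were present, with SALL1 at 54.4 CPM (counts scaled to a common library total) in the PGK line and 45.2 CPM in the CAG line, LIN28B and IGF2BP1 at 123.3 and 411.7 CPM against 100.8 and 398.7, and PAX2 and EYA1 lower, at 1.55 and 2.57 CPM against 1.27 and 5.23. Of the leukocyte, hepatocyte and muscle markers, CD3E and ALB had 0 counts in every library, and CD14 and DES had group means of at most 0.446 and 0.327 CPM. Values below are CPM on library sizes scaled by TMM, a method that centres the bulk of genes between libraries. Differences are log2 fold changes of CAG over PGK.

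Many of the promoters examined held an E2F-type motif, a feature that the selection of the genes did not use. Of the 45 genes, 38 were matched by symbol to the RefSeq promoter table (GRCh38.p14, 250 bases before to 50 after the start), and 18 of them (47.4%) held a match while 20 did not. The 4 forms searched on both strands were TTTCCCGC, TTTGGCGC, TTTCGCGC and TTTGCCGC, some of which overlap each other when read on opposite strands. Of all 27305 promoters of that length 3.3% held a match, and of those of 10240 tested genes 5.4% did. A match was found in 5 of 11 genes that rose, 6 of 12 that fell and 7 of 15 that did not pass the test, so similar shares of each class carried it. The windows below, each 28 bases long on the strand of the gene, show matches from genes of all 3 classes, with the match in capitals (read as its reverse complement where it begins with GC).
LIG1, chr19:48170441-48170468, minus strand, higher in CAG: cttcacccctTTTCCCGCcctcctccca
POLE, chr12:132687343-132687370, minus strand, higher in CAG: gggtgggagcGCGCCAAAtttctcccct
POLA1, chrX:24693771-24693798, plus strand, higher in CAG: tcatcacaggGCGCCAAAcgcgcgtccg
MCM7, chr7:100101567-100101594, minus strand, lower in CAG: agctcggaccGCGGGAAAcccggcgcct
GINS2, chr16:85688968-85688995, minus strand, lower in CAG: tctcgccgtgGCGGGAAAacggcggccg
CDT1, chr16:88803744-88803771, plus strand, did not pass: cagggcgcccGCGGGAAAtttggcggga
E2F1, chr20:33686388-33686415, minus strand, did not pass: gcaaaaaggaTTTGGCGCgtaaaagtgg
The E2F1 gene thus carries a match to the motif of its own family that begins 20 bases before its start. A match is a stretch of letters and does not show binding in these cells.

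Most replication genes differed little between the lines, and those that differed went in both directions. In the quasi-likelihood test of edgeR, adjusted over all genes by Benjamini-Hochberg, 12 of the 45 were higher in CAG, 15 were lower and 18 did not pass. Of all 13103 genes tested 62.0% were called, 31.6% higher and 30.4% lower, so these shares lie near the background. The 3 libraries of CAG lay all above those of PGK for 15 of the 45 and all below for 17, or 32 without overlap, where 65.5% of all tested genes had none (33.5% above and 32.0% below). Scaled by library size only, 16 were higher and 11 lower. Without CAG replicate 3, 11 were higher and 9 lower. The median log2 fold change of the 45 was -0.04, and their median size of change, regardless of direction, was 0.16 on the log2 scale, against 0.26 over all tested genes. Changes under 1.25-fold were seen for 34 of the 45 (75.6%) and for 57.5% of all tested genes. Among the 7801 tested genes at least as abundant as the lowest of the 45 the share was 68.3%. Their median size of change was 0.2 on the log2 scale. Only LIG1, POLD1, RFC4 and MCM4 were called with a fold of at least 1.5 (4 of 45). Of all tested genes 20.3% were, and of these 7801 genes 10.1% were. The summed CPM of the 45 genes was 7647 ± 23.8 in PGK and 7443 ± 62.0 in CAG (SD, n = 3). The fall of MCM4 alone, from 751.9 to 486.6 CPM, was larger than the difference between these sums, and the sum of the polymerase and primase genes was higher in CAG, at 1043 ± 16.7 against 850.2 ± 9.02 CPM. In bulk RNA, a different share of cells in S phase and a different amount of these RNAs per cell cannot be told apart.

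**Figure D1:**
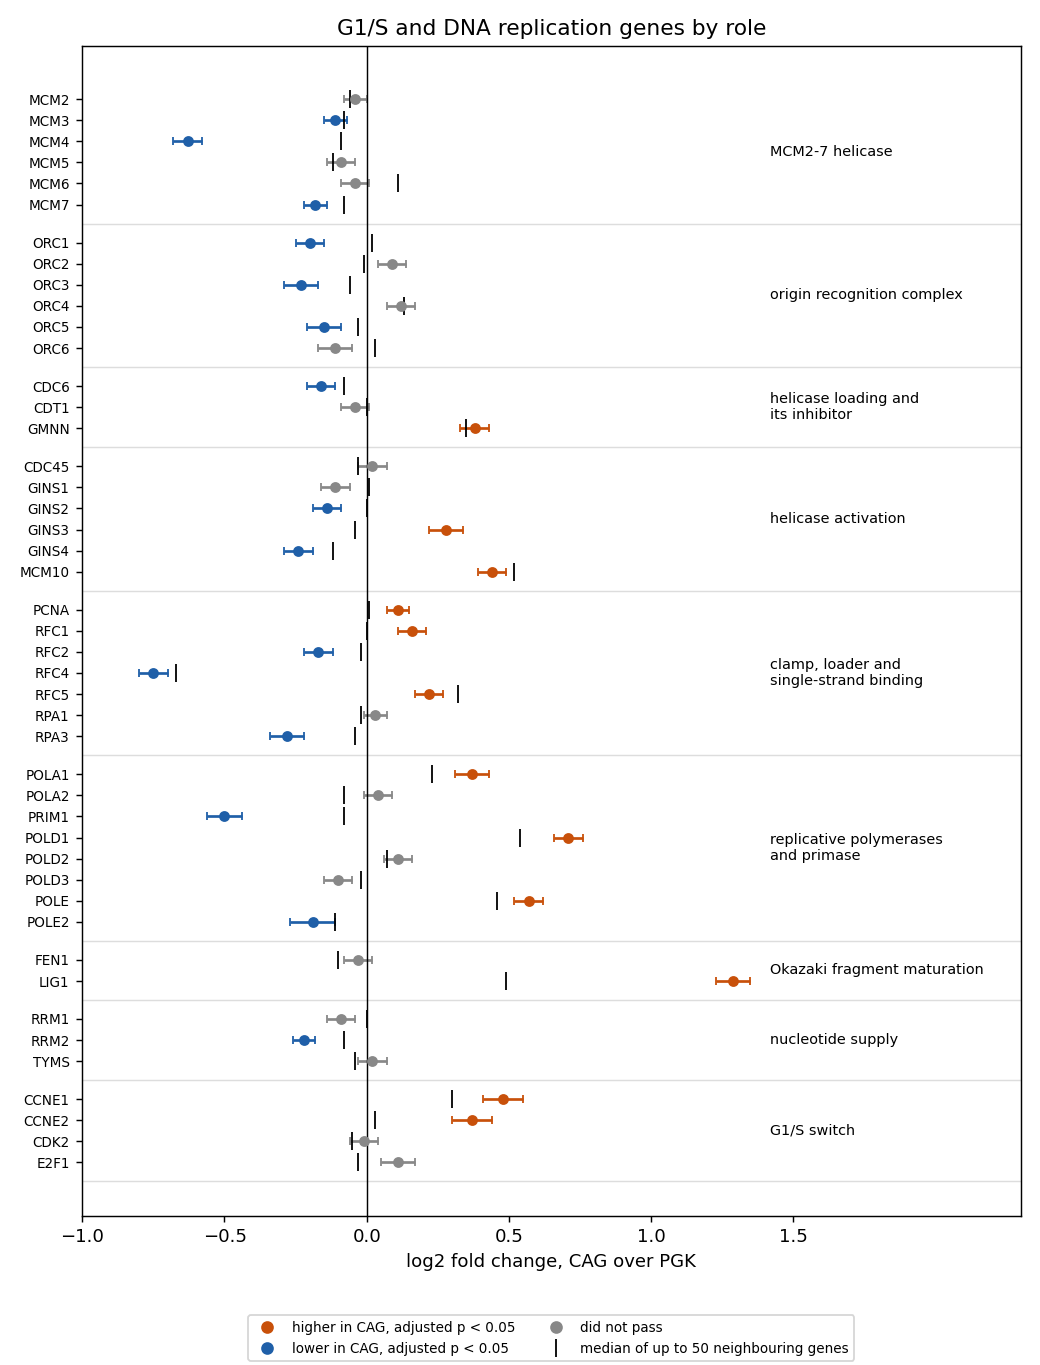
Log2 fold change of CAG over PGK for each of the 45 genes, grouped by role (points, with standard error bars), and the median of up to 50 neighbouring tested genes on the chromosome (black ticks). Most points lie within 0.3 of 0, LIG1 stands highest at 1.29, and RFC4 and MCM4 lie lowest at -0.75 and -0.63.

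The MCM2-7 genes encode the 6 subunits of the ring-shaped helicase that unwinds DNA. No subunit was higher, 3 were lower and 3 did not pass, and MCM4 fell far more than the others. MCM4 (ENSG00000104738, chromosome 8) had 722.1, 780.3 and 753.2 CPM in the PGK libraries and 486.8, 495.2 and 477.7 CPM in the CAG libraries. Every CAG library lay well below every PGK library, and MCM4 fell by 0.63 on the log2 scale (SE 0.05), with an adjusted p of 1.3e-09. MCM7 (ENSG00000166508, chromosome 7) had 824.2, 790.3 and 780.8 CPM in PGK and 709.0, 703.7 and 701.5 CPM in CAG. The lines again did not overlap, but the difference was smaller, at -0.18 (SE 0.04, adjusted p 0.00176). MCM3 also fell, by 0.11 (SE 0.04). MCM2, MCM5 and MCM6 were at -0.04, -0.09 and -0.04 and did not pass.

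The subunits are needed in equal numbers in the ring, but their transcripts were unequal in both lines. Per kilobase of merged exon, MCM7 was the highest in both, at 218.6 CPM per kb in PGK and 193.0 in CAG, and MCM6 the lowest, at 79.7 and 77.8. MCM4 made up 20.5%, 22.2% and 21.6% of the summed length-scaled level of the 6 genes in the PGK libraries and 16.0%, 16.2% and 15.8% in the CAG libraries. It stood second to MCM7 in PGK, whereas in CAG it was level with MCM3, both at a mean of 16.0%, and below MCM2 at 17.6%. The shares of MCM2, MCM3, MCM5 and MCM6 were higher in every CAG library than in every PGK library, while those of MCM7 overlapped. Since the shares sum to a fixed total, a fall of MCM4 raises the others, and none of these genes rose in CPM. The neighbours of MCM4 on chromosome 8 had a median log2 fold change of -0.09. The flanking gene PRKDC, which is transcribed away from MCM4 and encodes the catalytic subunit of a DNA repair kinase, changed by -0.30 (SE 0.06), and UBE2V2 on the other side by -0.25 (SE 0.05). These flanking genes were singled out after their values were seen.

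**Figure D2:**
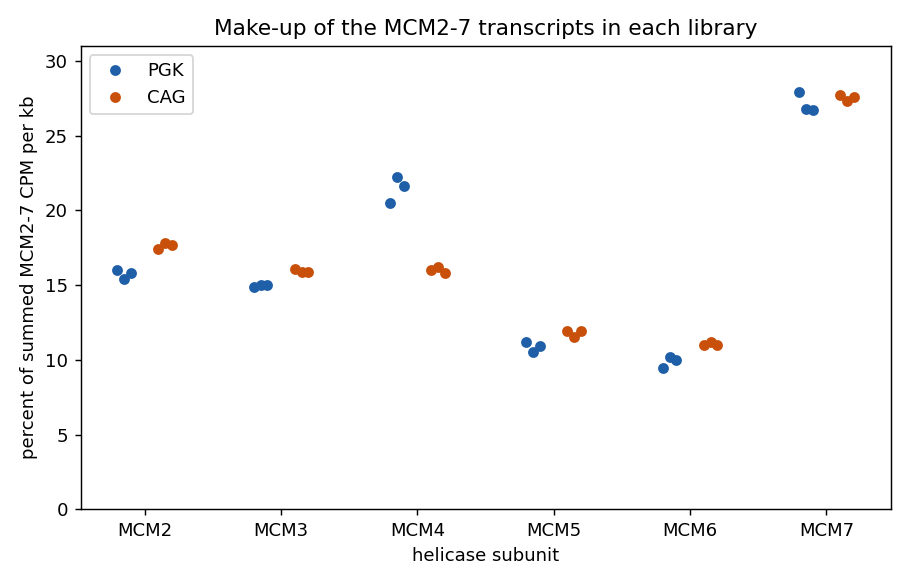
Share of each MCM2-7 subunit in the summed CPM per kb of the 6 genes, for each library (points, 3 per line). The MCM4 share lies between 20.5% and 22.2% in PGK and between 15.8% and 16.2% in CAG, and the MCM7 shares of the lines overlap.

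The origin recognition complex, the 6-subunit platform onto which the helicase is loaded, differed by under 1.25-fold throughout. ORC1, ORC3 and ORC5 were lower and ORC2, ORC4 and ORC6 did not pass, at 0.09, 0.12 and -0.11. ORC3 (ENSG00000135336, chromosome 6) had 44.6, 53.3 and 48.9 CPM in PGK and 41.6, 42.1 and 41.4 CPM in CAG. The PGK libraries spread more widely than the CAG libraries but stayed above them, and the difference was -0.23 (SE 0.06, adjusted p 0.00409). ORC1 (ENSG00000085840, chromosome 1), the subunit whose level is known to swing with the cell cycle, had 62.6, 64.7 and 65.0 CPM in PGK and 55.5, 54.5 and 56.8 CPM in CAG. All CAG libraries were lower, and ORC1 changed by -0.20 (SE 0.05, adjusted p 0.00197). ORC5 changed by -0.15 (SE 0.06), close to the threshold. Per kilobase, ORC6 was the most abundant subunit (45.8 CPM per kb in PGK, 42.6 in CAG) and ORC4 the least (7.48 and 8.11).

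CDC6 and CDT1 load the helicase, and geminin, the product of GMNN, binds CDT1 to stop origins from firing again after S phase has begun. GMNN (ENSG00000112312, chromosome 6) had 121.8, 118.2 and 119.9 CPM in PGK and 163.8, 153.2 and 152.5 CPM in CAG. The CAG libraries were all above the PGK libraries, and GMNN rose by 0.38 (SE 0.05, adjusted p 1.4e-06). CDT1 had a mean of 141.8 ± 10.2 CPM in PGK and 138.0 ± 4.47 in CAG (SD, n = 3), a difference of -0.04 that did not pass. The ratio of CDT1 to GMNN, both per kilobase, was 0.490, 0.467 and 0.531 in the PGK libraries and 0.366, 0.367 and 0.379 in the CAG libraries, without overlap. CDC6 (ENSG00000094804, chromosome 17) had 207.6, 196.7 and 184.4 CPM in PGK and 185.2, 176.2 and 166.0 CPM in CAG. The highest CAG library of CDC6 lay just above the lowest PGK library, so the lines overlapped, although the change of -0.16 (SE 0.05) passed with an adjusted p of 0.0155.

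Genes that turn the loaded helicase into a moving fork were split. MCM10, which helps to activate the helicase and is not a subunit of the MCM2-7 ring, and GINS3 were higher, GINS2 and GINS4 were lower, and CDC45 and GINS1 did not pass, at 0.02 and -0.11. MCM10 (ENSG00000065328, chromosome 10) had 90.6, 89.6 and 89.5 CPM in PGK and 118.2, 127.8 and 118.8 CPM in CAG. It rose by 0.44 (SE 0.05, adjusted p 4.7e-07), and the median of its neighbours was also raised, at 0.52. GINS3 (ENSG00000181938, chromosome 16) had 39.9, 43.4 and 39.5 CPM in PGK and 50.6, 50.4 and 47.9 CPM in CAG, with no overlap. It rose by 0.28 (SE 0.06, adjusted p 4.0e-04) while its neighbours had a median of -0.04. GINS4, another subunit of the same 4-protein complex, changed by -0.24 (SE 0.05) and GINS2 by -0.14 (SE 0.05). The ratio of GINS3 to GINS4, per kilobase, accordingly moved from 0.749 ± 0.0320 in PGK to 1.07 ± 0.0319 in CAG (SD, n = 3).

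PCNA is the ring-shaped clamp that holds polymerases on DNA, the RFC complex opens and loads it, and RPA coats the exposed single strands. In this group 3 genes were higher, 3 lower and RPA1 did not pass, at 0.03. RFC4 (ENSG00000163918, chromosome 3) had 102.3, 107.2 and 107.6 CPM in PGK and 63.7, 63.9 and 61.4 CPM in CAG. It fell by 0.75 (SE 0.05, adjusted p 4.3e-10), the lowest value among the 45. Of the other loader subunits, RFC2 also fell, by 0.17 (SE 0.05), whereas RFC1 rose by 0.16 (SE 0.05) and RFC5 by 0.22 (SE 0.05). The ratio of RFC4 to RFC5 per kilobase went from 1.54 ± 0.0214 to 0.792 ± 0.0338 (SD, n = 3). The median of the neighbours of RFC4 on chromosome 3 was -0.67, and its overlapping neighbour EIF4A2, a translation factor on the other strand, changed by -0.75 (SE 0.05). RPA3 (ENSG00000106399, chromosome 7), the smallest RPA subunit, had 48.1, 42.8 and 42.7 CPM in PGK and 37.1, 34.4 and 38.3 CPM in CAG. The lines did not overlap and the change was -0.28 (SE 0.06, adjusted p 9.6e-04). The median of its neighbours was -0.04, but its overlapping neighbour UMAD1 on the other strand changed by -0.39 (SE 0.09). PCNA had 295.2 ± 5.86 CPM in PGK and 318.0 ± 1.18 in CAG, a difference of 0.11 (SE 0.04) close to the threshold.

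Among the replicative polymerase and primase genes 3 were higher, 2 lower and 3 did not pass. Polymerase alpha with primase makes the RNA-DNA primers, polymerase epsilon extends the leading strand and polymerase delta the lagging strand. The genes that rose were POLA1, POLD1 and POLE, which encode the DNA-synthesizing subunits of the 3 polymerases. Of the 5 other genes, PRIM1, which encodes the RNA-synthesizing subunit of primase, and POLE2 were lower and POLA2, POLD2 and POLD3 did not pass, at 0.04, 0.11 and -0.10. This grouping was made after the values were seen and was not tested.

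POLD1 (ENSG00000062822, chromosome 19) had 117.9, 102.3 and 113.1 CPM in PGK and 175.2, 183.5 and 186.5 CPM in CAG. All CAG libraries were far above, and POLD1 rose by 0.71 (SE 0.05, adjusted p 2.3e-09). POLE (ENSG00000177084, chromosome 12) had 204.1, 210.4 and 204.1 CPM in PGK and 294.0, 313.5 and 309.6 CPM in CAG. It rose by 0.57 (SE 0.05, adjusted p 4.0e-09). POLA1 (ENSG00000101868, chromosome X) had means of 103.6 ± 7.65 and 134.3 ± 9.14 CPM (SD, n = 3) and rose by 0.37 (SE 0.06). The neighbours of these 3 genes were raised as well, with medians of 0.54 for POLD1, 0.46 for POLE (37 neighbours, near a chromosome end) and 0.23 for POLA1. PRIM1 (ENSG00000198056, chromosome 12) had 56.4, 61.8 and 59.9 CPM in PGK and 43.3, 43.2 and 39.9 CPM in CAG. It went the opposite way to its partner POLA1, with a change of -0.50 (SE 0.06, adjusted p 5.3e-07), and its neighbours had a median of -0.08.

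Ratios between some subunit transcripts of the polymerase complexes differed between the lines. Each ratio below sets a gene that rose against one that did not, so it restates the changes above. Per kilobase, the ratio of POLA1 to PRIM1 was 0.436, 0.460 and 0.428 in the PGK libraries and 0.744, 0.848 and 0.832 in the CAG libraries. The ratio of POLD1 to POLD3 was 1.92 ± 0.222 in PGK and 3.35 ± 0.164 in CAG (SD, n = 3). That of POLD1 to POLD2 was 0.415 ± 0.0131 and 0.630 ± 0.0218, and that of POLE to POLE2 was 2.49 ± 0.215 and 4.19 ± 0.389. None of these ratios overlapped between the lines.

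LIG1, DNA ligase I, which seals the nicks between Okazaki fragments, had the largest difference among the 45 genes. LIG1 (ENSG00000105486, chromosome 19) had 51.5, 49.7 and 55.0 CPM in PGK and 134.6, 124.0 and 123.7 CPM in CAG. The lowest CAG library stood at 123.7 CPM and the highest PGK library at 55.0, and LIG1 rose by 1.29 (SE 0.06), a fold of 2.45, with an adjusted p of 9.9e-13. FEN1 (ENSG00000168496, chromosome 11), the flap nuclease that trims the fragment before LIG1 seals it, had 258.4, 247.1 and 261.8 CPM in PGK and 259.8, 246.9 and 247.6 CPM in CAG. Its libraries overlapped and its change of -0.03 did not pass. Per kilobase, LIG1 stood at 0.107 ± 0.00300 of the FEN1 level in PGK and 0.265 ± 0.00524 in CAG (SD, n = 3). LIG1 exceeded the median of its neighbours, 0.49, by 0.80. The nearest tested genes on either side, ZSWIM9 at 0.11 and SULT2A1 at -0.29, did not pass, and SULT2A1 was below 1 CPM in both lines.

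**Figure D3:**
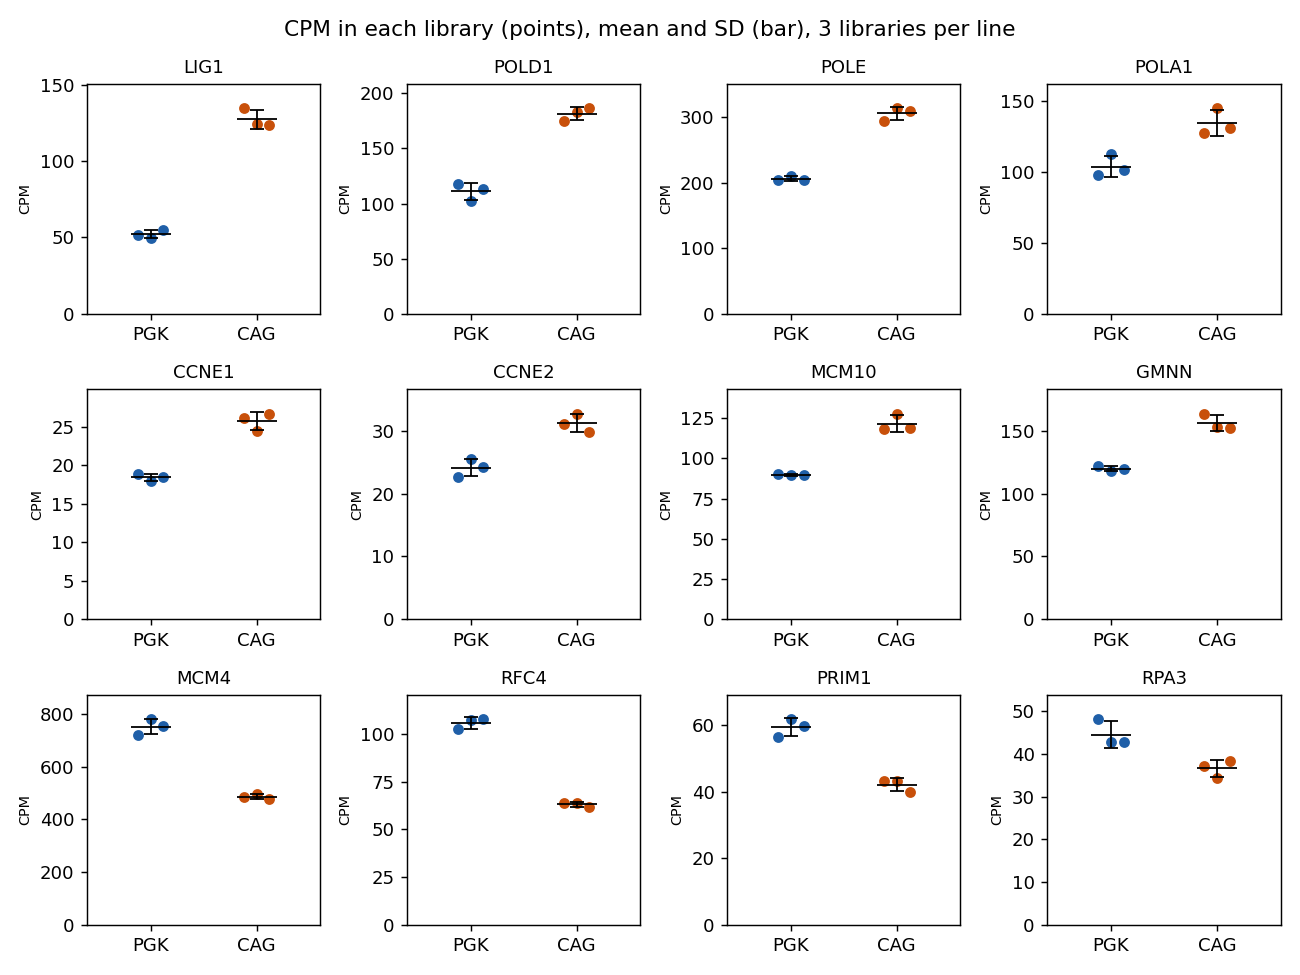
CPM of 12 genes in each library (points) with the mean and SD of each line (bars), on axes that start at 0. For each gene shown the 3 CAG libraries lie all above or all below the 3 PGK libraries, from 49.7 to 55.0 against 123.7 to 134.6 for LIG1.

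Ribonucleotide reductase, made of RRM1 and RRM2, makes deoxynucleotides, and thymidylate synthase, TYMS, makes the thymidine precursor. RRM2 (ENSG00000171848, chromosome 2), the subunit known to limit the enzyme in S phase, had 311.5, 313.2 and 301.6 CPM in PGK and 266.5, 266.4 and 263.2 CPM in CAG. It was lower in every CAG library, with a change of -0.22 (SE 0.04, adjusted p 2.5e-04). RRM1 (ENSG00000167325, chromosome 11) had 277.0, 303.9 and 286.0 CPM in PGK and 267.7, 278.6 and 269.6 CPM in CAG. These overlapped and the change of -0.09 did not pass, nor did that of TYMS, at 0.02.

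Both cyclin E genes, whose products activate CDK2 at the G1/S switch, were higher in CAG, while CDK2 and E2F1 did not pass. CCNE1 (ENSG00000105173, chromosome 19) had 18.9, 18.0 and 18.5 CPM in PGK and 26.1, 24.4 and 26.7 CPM in CAG. It rose by 0.48 (SE 0.07, adjusted p 6.6e-06), with a median of 0.30 for its neighbours. CCNE2 (ENSG00000175305, chromosome 8) had 22.7, 25.5 and 24.2 CPM in PGK and 31.1, 32.7 and 29.8 CPM in CAG. It rose by 0.37 (SE 0.07, adjusted p 1.2e-04), and its neighbours had a median of 0.03. The kinase gene CDK2 was at 141.8 ± 1.10 CPM in PGK and 140.8 ± 1.37 in CAG (SD, n = 3), a difference of -0.01. E2F1 was at 73.8 ± 4.15 and 79.8 ± 2.94 CPM, a difference of 0.11 with an adjusted p of 0.0842, which fell below 0.05 under library size scaling and with the replicate block.

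The 45 genes tended to differ in the same direction as the genes around them, as did most called genes. Of the 27 called here 25 had the sign of their neighbours' median, and of all 8125 called genes 5860 did. For 8 genes the median of up to 50 neighbouring tested genes was at least 0.25 away from 0, a limit that had been set on these data earlier, and all 8 were called in the direction of their neighbours: GMNN, MCM10, RFC4, RFC5, POLD1, POLE, LIG1 and CCNE1. Most tested genes in such neighbourhoods were also called in the direction of their neighbours (2877 of 3634), so this direction is the common one over all tested genes too. Across the 45 genes Pearson's r between gene and neighbourhood was 0.83 and Spearman's rho 0.73. This is a description over genes that share the same 6 libraries, and it was not computed over all tested genes. Minus the median of the neighbours, RFC4 was at -0.08, POLE at 0.10, POLD1 at 0.17 and GMNN at 0.04, and MCM10 and RFC5 changed sign, to -0.09 and -0.10. LIG1 at 0.80, MCM4 at -0.54, PRIM1 at -0.42, CCNE2 at 0.34 and GINS3 at 0.32 were the furthest from 0. The part of the neighbourhoods in these differences was not tested.

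**Figure D4:**
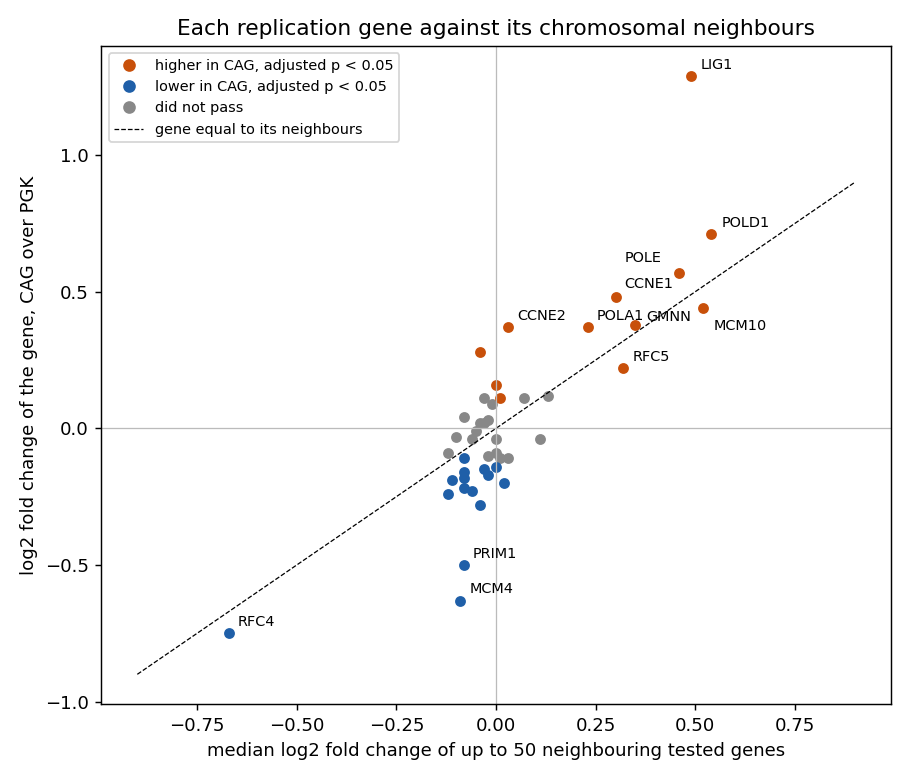
Log2 fold change of each of the 45 genes (vertical axis) against the median log2 fold change of up to 50 neighbouring tested genes (horizontal axis), with a dashed line where the values are equal. RFC4, POLE, MCM10 and GMNN lie near the line, whereas LIG1 lies 0.80 above it and MCM4 and PRIM1 lie 0.54 and 0.42 below it.

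Other genes of the pathway included larger differences than any of the 45. Among 24 tested regulators of E2F, RB and the G1 phase 4 were higher and 8 lower, with a median of -0.06. Of all tested genes 31.6% were higher and 30.4% lower. Cyclin D1, CCND1 (ENSG00000110092, chromosome 11), which starts the inactivation of RB with CDK4 or CDK6, had 80.8, 83.1 and 80.4 CPM in PGK and 8.69, 10.6 and 11.0 CPM in CAG. The CAG line held 8.03-fold less, a change of -3.01 (SE 0.07, adjusted p 1.8e-16), while its neighbours had a median of -0.01. CCND1 overlaps LTO1 on the other strand, so its level is uncertain. CDKN1A, the CDK inhibitor p21, was also low in CAG, at 15.8 ± 0.831 against 39.7 ± 2.53 CPM (SD, n = 3), a change of -1.33 (SE 0.07). The median of its neighbours was -0.30. TFDP1, the DNA-binding partner of E2F proteins, rose by 0.96 (SE 0.05) from 97.0 to 188.7 CPM, with a median of 0.97 for its neighbours on chromosome 13. CCNA2, the S-phase cyclin A gene, rose by 0.46 (SE 0.05), with a neighbourhood median of 0.39.

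The remaining lists went both ways, with more genes lower than higher in all but the chromatin assembly list. Over all tested genes 31.6% were higher and 30.4% lower. Of 16 origin firing and fork protection genes 4 were higher and 6 lower, with a median of 0.03. The origin firing factor TICRR rose by 0.39 (SE 0.06) and DONSON by 0.20 (SE 0.05). WDHD1, which links the helicase to polymerase alpha, changed by -0.31 (SE 0.05) and the kinase CDC7 by -0.22 (SE 0.05). Their neighbours had medians of 0.42 for TICRR, 0.13 for DONSON, -0.10 for WDHD1 and 0.03 for CDC7. Of 20 other replisome and nucleotide genes 5 were higher and 11 lower, with a median of -0.21. RNASEH2A, which removes RNA from DNA, fell by 0.65 (SE 0.05), with a median of -0.35 for its neighbours. The nucleoside kinase DCK rose by 0.37 (SE 0.07) and the clamp loader subunit CHTF18 by 0.28 (SE 0.08). The medians of their neighbours were 0.46 for DCK and -0.06 for CHTF18.

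Of 12 tested chromatin assembly genes, which wrap new DNA in histones, 5 were higher and 5 lower, with a median of -0.05. The histone chaperones ASF1B and CHAF1A fell by 0.56 (SE 0.05) and 0.36 (SE 0.05), with neighbourhood medians of -0.37 and -0.35. The histone-binding proteins RBBP4 and RBBP7 rose by 0.75 (SE 0.05) and 0.48 (SE 0.04), with neighbourhood medians of 0.60 and 0.21. Of 30 G2/M genes 5 were higher and 17 lower, with a median of -0.14, against 12, 15 and -0.04 for the 45. The shares over all tested genes were 31.6% higher and 30.4% lower. PTTG1 and KIF20A changed by -0.67 and -0.56, with neighbourhood medians of -0.44 and -0.02. PRC1 and CENPE changed by 0.72 and 0.58, with neighbourhood medians of 0.41 and 0.55. The difference between these lists was not tested.

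**Figure D5:**
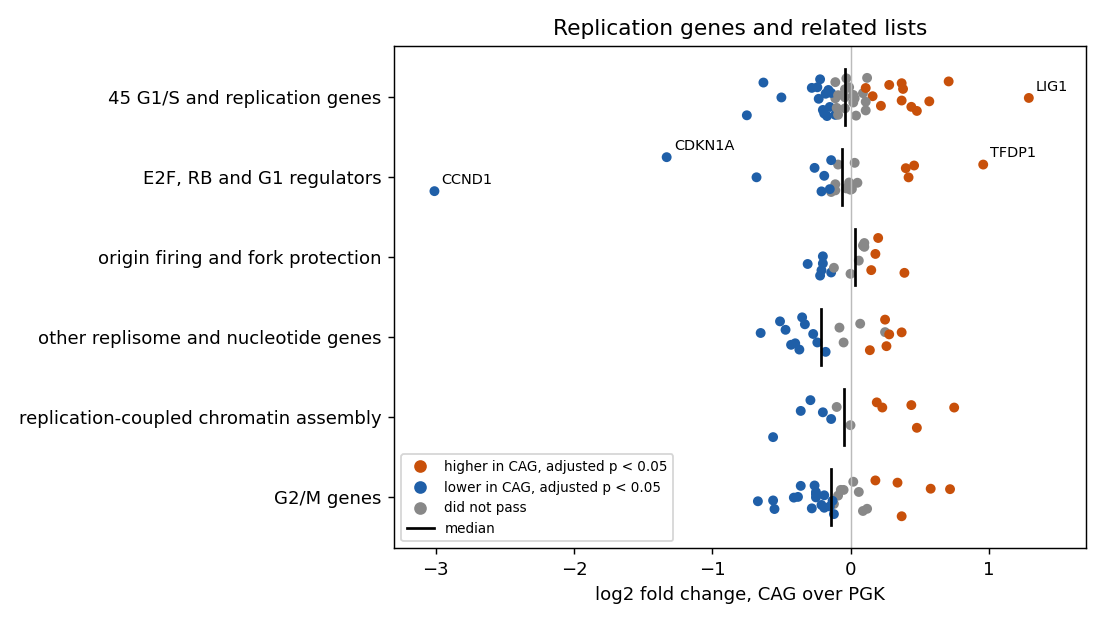
Log2 fold change of CAG over PGK for the 45 genes and for the tested members of 5 related lists (points, coloured by the test), with the median of each list (black lines). CCND1 at -3.01 and CDKN1A at -1.33 lie lower than any of the 45 genes, and the medians run from -0.21 to 0.03.

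How firmly single genes can be read depends on the size of the difference and on overlaps with other genes. Of the 27 calls, 19 held in all 13 re-tests against no change. Calls of PCNA, ORC5, MCM3, POLE2, RFC2, CDC6, GINS2 and RFC1 were lost in at least 1, with adjusted p of up to 0.233 for ORC5, 0.211 for POLE2, 0.133 for MCM3, 0.114 for CDC6, 0.104 for PCNA, 0.0809 for RFC1, 0.0742 for RFC2 and 0.0720 for GINS2. Leaving out CAG replicate 3 cost 7 of these calls, all but that of RFC1, and leaving out CAG replicate 2 cost 6, all but those of CDC6 and GINS2. Without PGK replicate 1 the calls of CDC6 and PCNA were lost, without PGK replicate 2 those of MCM3 and PCNA, without PGK replicate 3 those of MCM3, ORC5 and POLE2, and without CAG replicate 1 those of MCM3, ORC5 and PCNA. Of the 18 genes that did not pass, 10 passed in none of the 13 re-tests. MCM5, ORC2, ORC4, ORC6, GINS1, POLD2, RRM1 and E2F1 passed in at least 1, POLD2 in 4. Exons of MCM2, MCM7, GINS2, RFC4, RPA3, PRIM1, FEN1, TYMS, CCNE2 and ORC4 overlap those of a protein-coding gene on the other strand, and those of POLD1, POLA2, PRIM1, RRM2 and FEN1 another gene on the same strand, so their counts are uncertain. PCNA, RRM2, TYMS, FEN1, RFC5 and POLD2 have named pseudogenes, which can share or take reads. Among genes named from the other lists, CCND1, CCNA2, TICRR, DONSON, CHTF18, RBBP4, RBBP7 and KIF20A overlap a protein-coding gene on the other strand. DONSON and PRC1 overlap another gene on the same strand, and RBBP4 has named pseudogenes. The counts of all these genes are uncertain too.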

How the data were processed

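The authors deposited raw read counts per Ensembl gene, in whole numbers, with a column for each of 6 libraries. The submitters' processing notes list featureCounts 2.0.3, HISAT2 2.2.1, Bowtie2 2.5.1 and cutadapt 4.6, and the hg19 build; what each tool did, which annotation was counted, whether strand was used and how multi-mapping reads were treated is not given in the sources used. Symbols, chromosomes, gene order, overlaps and merged exon lengths came from GENCODE 29 (GRCh38), which matched 19346 of 20169 rows by identifier, and no coordinates were taken from it.

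Genes were filtered with filterByExpr, scaled by TMM and tested over all 13103 genes kept in edgeR 4.0.16 (R 4.3.3) by its robust quasi-likelihood F test (two-sided, Benjamini-Hochberg, threshold 0.05). A standard error is the log2 fold change divided by the square root of F. Neighbours are the 25 tested genes on each side. The fit was tested on simulated counts. The members, lists and rules were chosen with earlier results of these data known; values in every library are given for the 2 members with the largest change in each role group and for called members at 0.5 or more, and up to 2 called genes per direction are named in each other list, apart from a few not reported here. The alternatives were 2 other low-count filters, library size only, RLE factors, limma-voom (limma 3.58.1), DESeq2 1.42.0, a replicate block, a null of 1.5-fold, leaving out each library, and subtraction of the neighbours' median. PCR copies are not independent molecules, so counts can overstate precision. The share of such copies was not measured.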

Additional observations from a re-analysis of the deposited data

How the results depend on the processing

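The main counts were 12 higher and 15 lower. Leaving out each library in turn gave 10 to 13 higher and 9 to 15 lower, with the 9 coming without CAG replicate 3. Tested against a fold of 1.5, 2 were higher (LIG1 and POLD1) and 1 lower (RFC4). The signs here leave aside subtraction of the neighbours' median, which is given below. No called gene changed sign in any of these re-tests. Signs changed for 5 values that did not pass: CDT1 to 0.01 without PGK replicate 3, CDC45 to -0.001 without CAG replicate 2 (up to 0.04 without other libraries), TYMS to -0.005 without CAG replicate 1 (likewise up to 0.04), and FEN1 to 0.01 and CDK2 to 0.02 with library size only. Minus the neighbours' median, the called genes MCM10 and RFC5 changed sign, to -0.09 and -0.10. Of the genes that did not pass, MCM2 changed sign to 0.02, MCM5 to 0.03, ORC4 to -0.01, FEN1 to 0.08 and CDK2 to 0.04. The cause was not tested. Library size scaling moved the median of all tested genes to 0.03. The replicate numbers carry no stated pairing. Deviations of same-numbered libraries correlated at 0.108, 0.103 and 0.0131, each library best with its own number, and the replicate block gave 15 higher and 19 lower, with 7 calls added and 0 lost. At these depths (at least 21896246 counts) the change that just passed depended on abundance: -0.11 for MCM3 and 0.11 for PCNA, but -0.15 for ORC5 and -0.19 for POLE2, which have fewer counts.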
